A study of Mus musculus with 36 samples.

Results

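The serum response factor gene Srf, the ternary complex factor genes Elk1, Elk3 and Elk4, and the myocyte enhancer factor genes Mef2a, Mef2c and Mef2d were followed in mouse cortical neurons after stimulation. These 7 genes were chosen by name from a table of 26709 genes, and all 7 were among the 16209 genes with a mean of 10 or more normalised counts over the 18 RNA libraries. Mef2b was not analysed here. RNA and open chromatin (RNA-seq and ATAC-seq, the latter a count of transposase cuts in accessible DNA) were measured in CD-1 primary cortical neurons, taken at embryonic day 15, with the tissue of all embryos combined, and used after 7 days in vitro. All groups were made quiet before use: they spent 2 h in AP-5 (100 µM), which blocks NMDA receptors, together with TTX (1 µM), which blocks sodium channels. The neurons then received either 10 ng/ml BDNF, a ligand of the TrkB receptor, or 55 mM KCl, which depolarises the membrane and opens calcium channels, for 1, 6 or 10 h, while the controls stayed in AP-5 and TTX for 3, 8 or 12 h in all. Each of the 9 groups had 2 libraries per assay. Unless a time is named, the 6 control libraries were used as 1 group. The study calls the libraries of a group biological replicates. Neither it nor the labels say whether they came from separate cultures or dissections, so each p measures the spread between these libraries, which may be technical.

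SRF binds as a dimer to the CArG box in the promoters of immediate early genes and of cytoskeletal genes. ELK1, ELK3 and ELK4 are ETS proteins that sit beside SRF on such promoters and are switched on when ERK phosphorylates them, whereas the MRTF cofactors bring SRF under the control of actin. MEF2 proteins bind an A and T rich site, are held back by class IIa histone deacetylases in resting cells and are released by calcium signals; in neurons they are known for limiting the number of excitatory synapses. Because these factors are regulated largely after translation, their RNA level is a separate quantity from their activity, which was not measured.

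The sequences printed here are 3 promoters of the genes that hold a letter match to a site of the same families, and 3 intron regions whose accessibility was called changed, which hold a MEF2 site or the AP-1 site of the FOS and JUN proteins. In the RefSeq promoters (GRCm38, 250 bases before to 50 after the start, both strands searched), the Srf promoter held 2 CArG boxes with first bases at -82 and -62 from the start, and 1.63% of all 32851 promoters held any. The Elk4 promoter held the ETS site CCGGAAGT at -68, a site found in 3.89% of promoters and one that contains the ETS core GGAA. The Mef2a promoter held a MEF2 site at -2, found in 3.19% of promoters. Of the accessible regions described later, an intron peak of Elk3 held the AP-1 site TGANTCA, and 2 intron peaks of Mef2c held MEF2 sites. Capitals mark these matches, promoters are written along the strand of the gene, and peaks along the plus strand.
Srf promoter, chr17:46556113-46556412, minus strand: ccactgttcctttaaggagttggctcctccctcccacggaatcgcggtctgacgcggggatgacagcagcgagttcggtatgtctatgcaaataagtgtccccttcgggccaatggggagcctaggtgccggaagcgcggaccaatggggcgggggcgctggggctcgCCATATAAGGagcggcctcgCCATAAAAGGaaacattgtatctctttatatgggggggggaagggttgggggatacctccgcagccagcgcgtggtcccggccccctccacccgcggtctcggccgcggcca
Elk4 promoter, chr1:132007370-132007669, plus strand: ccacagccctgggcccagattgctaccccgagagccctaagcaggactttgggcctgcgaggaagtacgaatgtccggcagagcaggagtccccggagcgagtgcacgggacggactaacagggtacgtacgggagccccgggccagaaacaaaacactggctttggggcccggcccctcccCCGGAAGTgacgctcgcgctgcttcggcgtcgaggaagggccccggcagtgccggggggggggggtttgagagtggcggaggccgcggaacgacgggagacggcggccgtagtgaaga
Mef2a promoter, chr7:67372809-67373108, minus strand: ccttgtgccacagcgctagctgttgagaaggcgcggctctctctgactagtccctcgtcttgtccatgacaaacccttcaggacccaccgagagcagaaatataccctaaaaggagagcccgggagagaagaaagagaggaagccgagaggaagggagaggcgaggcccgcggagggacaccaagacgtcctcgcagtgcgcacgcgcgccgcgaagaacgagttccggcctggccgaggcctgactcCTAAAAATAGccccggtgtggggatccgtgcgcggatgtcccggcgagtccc
Elk3 intron peak, chr10:93309615-93309817, plus strand: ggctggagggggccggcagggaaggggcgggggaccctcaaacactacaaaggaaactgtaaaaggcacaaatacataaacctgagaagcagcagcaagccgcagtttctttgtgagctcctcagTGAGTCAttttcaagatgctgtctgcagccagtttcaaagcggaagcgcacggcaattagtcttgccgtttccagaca
Mef2c intron peak, chr13:83566305-83566604, plus strand: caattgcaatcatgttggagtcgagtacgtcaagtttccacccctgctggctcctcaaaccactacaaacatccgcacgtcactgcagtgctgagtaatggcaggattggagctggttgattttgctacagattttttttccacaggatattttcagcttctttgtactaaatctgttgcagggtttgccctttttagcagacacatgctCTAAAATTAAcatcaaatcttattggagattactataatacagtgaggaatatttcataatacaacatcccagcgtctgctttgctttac
Mef2c intron peak, chr13:83603948-83604148, plus strand: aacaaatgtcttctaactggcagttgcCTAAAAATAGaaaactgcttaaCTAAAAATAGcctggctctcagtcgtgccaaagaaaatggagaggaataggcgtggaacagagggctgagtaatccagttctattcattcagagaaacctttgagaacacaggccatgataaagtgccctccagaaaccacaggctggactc
A match of letters is a description of the sequence and says nothing of occupancy.

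Levels in the silenced controls were compared between genes only after division by exon length (normalised counts per kb of merged exons). On that scale Mef2c was the highest at 286 ± 8.74 (SD, n = 6), followed by Srf at 254 ± 10.5, Mef2d at 211 ± 10.1, Elk1 at 165 ± 6.40 and Mef2a at 122 ± 7.72. Elk4, at 49.0 ± 3.68, and Elk3, at 33.4 ± 4.05, were the lowest. The control ranges of neighbours in this order did not overlap, the closest being Mef2c (273 to 300) and Srf (240 to 270). The place of Mef2a depends on the length used: with its longest coding transcript in place of the merged exons, a choice added after the data were seen, it stood at 324 per kb, above Srf at 280, Elk1 at 251 and Mef2d at 233, and below Mef2c at 717. No member was called between control times (0 of 7, none with an unadjusted p under 0.05 by limma, and 0 by edgeR or DESeq2). The Srf controls of 10 h (693 and 728 normalised counts) still lay below those of 1 h (738 and 781), a log2 difference of -0.10. With 2 libraries per time, a small drift could go uncalled. Of all 16209 genes 0% were called for 6 h against 1 h of control and 0% for 10 h against 1 h, with 164 and 181 genes at an unadjusted p under 0.05.

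**Figure D1:**
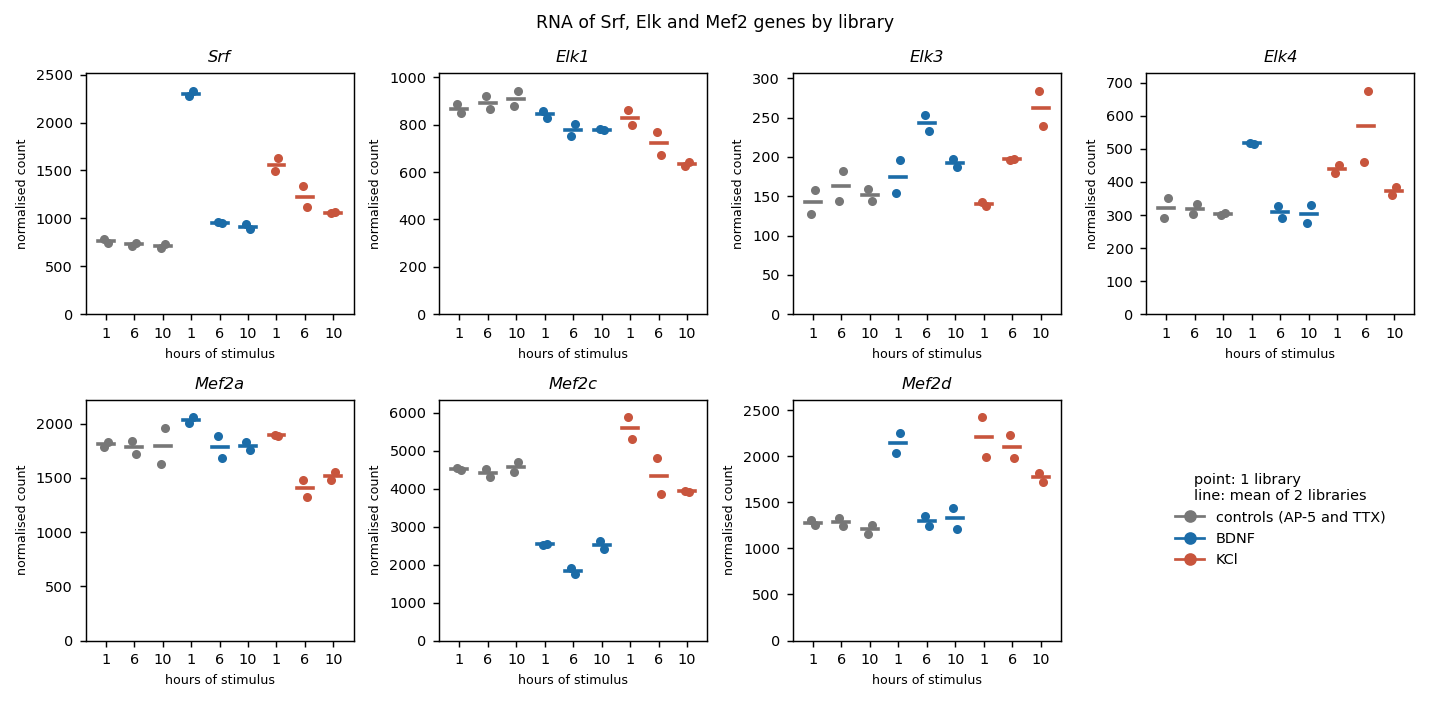
Normalised counts of the 7 genes (vertical axis, each panel from 0) in each of the 18 RNA libraries, grouped by stimulus and hours (horizontal axis); points are libraries and lines are group means. Srf was at 2273 and 2328 after 1 h of BDNF against 693 to 781 in the controls, and Mef2c was at 1914 and 1753 after 6 h of BDNF against 4295 to 4712.

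Srf RNA was highest 1 h after BDNF and stayed above the controls at all times under both stimuli. In normalised counts the 6 controls ran from 693 through a median of 733 to 781. BDNF gave 2273 and 2328 (1 h), 961 and 949 (6 h), then 944 and 885 (10 h). KCl gave 1494 and 1627 (1 h), 1334 and 1114 (6 h), then 1051 and 1067 (10 h). No stimulated library overlapped the controls. The log2 fold change, here and for the other genes on the log2(normalised count + 1) scale, was 1.65 ± 0.07 (SE) 1 h after BDNF, which is 3.13-fold (adjusted p = 2.40e-14), and 1.09 ± 0.07 1 h after KCl (adjusted p = 2.32e-11). At 10 h it was 0.32 under BDNF (adjusted p = 0.00128) and 0.53 under KCl (adjusted p = 1.66e-06).

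The direct test between the stimuli changed sign with time for Srf. BDNF exceeded KCl by 0.56 ± 0.08 on the log2 scale at 1 h (adjusted p = 1.62e-05). It fell short of KCl by -0.35 at 6 h (adjusted p = 0.00145) and by -0.21 at 10 h (adjusted p = 0.0513). The last of these calls was lost without any of 3 of the 4 libraries compared (-0.17 without BDNF 10 h library B, -0.22 and -0.20 without KCl 10 h library A or B).

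Of the 3 ternary complex factor genes, Elk4 rose early under both stimuli, Elk3 rose late, and Elk1 drifted down. Elk4 ran from 292 through a median of 304 to 352 normalised counts in the controls. After BDNF it was at 519 and 516 (1 h), 326 and 291 (6 h), then 275 and 331 (10 h). After KCl it was at 428 and 451, then at 461 and 675, and at 10 h at 362 and 384. Only the 1 h libraries of BDNF and all KCl libraries lay above every control. Against the controls, Elk4 changed by 0.72 ± 0.11 at 1 h of BDNF (adjusted p = 2.73e-05), 0.49 ± 0.11 at 1 h of KCl (adjusted p = 0.00103) and 0.83 ± 0.11 at 6 h of KCl (adjusted p = 1.53e-06). At 6 h the difference between BDNF and KCl was -0.85 ± 0.14 (adjusted p = 2.17e-05). The libraries of KCl 6 h stood far apart for this gene. Without library B the change from 1 to 6 h under KCl went from 0.34 to 0.07, and that from 6 to 10 h from -0.58 to -0.31, neither called any longer. Across genes these libraries also differed most: the chi-square per degree of freedom between them was 36.4, against 2.33 to 9.77 in the other RNA groups. The fit shares 1 estimate of the spread between groups, so no SE or p at 6 h of KCl, for any gene, carries this wider spread in full. The rise at 10 h of KCl (0.25, adjusted p = 0.067) was also lost without either of its libraries (0.29 and 0.21) or without control 1 h or 10 h library A (0.23 and 0.24). Elk4 shares 84 bp of exon with Mfsd4a on the opposite strand, which had a mean of 223 normalised counts and also rose at 1 h of BDNF (0.79) and at 1 and 6 h of KCl (0.33 and 0.66); their shared reads cannot be told apart.

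Elk3, which encodes an ETS protein able to repress SRF targets, was the lowest of the 7 and showed no call at 1 h. Its controls ran from 127 through a median of 151 to 181 normalised counts. Under BDNF it was at 154 and 195 (1 h), 253 and 232 (6 h), then 198 and 187 (10 h). Under KCl it was at 142 and 138 at 1 h, at 197 in each library at 6 h, and at 284 and 240 at 10 h. All libraries of 6 and 10 h lay above the controls, whereas those of 1 h overlapped them. Elk3 changed by 0.68 ± 0.12 on the log2 scale at 6 h of BDNF (adjusted p = 1.65e-04) and 0.78 ± 0.12 at 10 h of KCl (adjusted p = 1.78e-05). At 10 h of BDNF it was 0.34 (adjusted p = 0.0348), and that call was lost without either library (0.30 and 0.38). BDNF was above KCl at 6 h by 0.30 (adjusted p = 0.0994) and below it at 10 h by -0.44 (adjusted p = 0.025), but the first call was lost on leaving out any of the 4 libraries (0.24 to 0.36) and the second without BDNF 10 h library B (-0.40) or KCl 10 h library A (-0.32). The exons of Elk3 share 316 bp with Cdk17 on the opposite strand, whose mean over the libraries was 1513 normalised counts. Whether the counting used strand is not stated, so reads from the shared stretch cannot be told apart. Cdk17 rose at 6 h of KCl (0.16, adjusted p = 0.0551), where Elk3 rose by 0.38, fell at 10 h of KCl (-0.18), where Elk3 also rose, and was at -0.08 at 6 h and -0.05 at 10 h of BDNF. At 1 h, where Elk3 was not called, Cdk17 rose with BDNF (0.46) and fell with KCl (-0.41).

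Elk1 ran from 849 through a median of 883 to 942 normalised counts in the controls. With BDNF it was at 859 and 827 (1 h), 751 and 804 (6 h), then 780 and 776 (10 h). With KCl it was at 862 and 798, then at 769 and 674, and at 10 h at 627 and 644. From 6 h on every stimulated library was below the lowest control. The log2 fold change reached -0.49 ± 0.07 at 10 h of KCl, or 71.4% of the control level (adjusted p = 3.58e-06), against -0.19 ± 0.07 at 10 h of BDNF (adjusted p = 0.0302), a call lost without either BDNF 10 h library (-0.20 and -0.19). At 6 h of BDNF (-0.19) the call was lost without library A (-0.15). The difference between the stimuli at 10 h was 0.29 ± 0.08 in favour of BDNF (adjusted p = 0.00733). Among dividing-cell markers, Mki67 (-0.94) and Top2a (-0.96) also fell at 10 h of KCl, and their part in the Elk1 result was not tested. In these bulk libraries fewer cells of a type and less RNA per cell cannot be told apart.

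Of the MEF2 genes, Mef2c was the member on which the stimuli differed most. Its controls ran from 4295 through a median of 4507 to 4712 normalised counts. After BDNF it was at 2524 and 2552 (1 h), 1914 and 1753 (6 h), then 2628 and 2398 (10 h). After KCl it was at 5875 and 5294 (1 h), 4798 and 3858 (6 h), then 3933 and 3916 (10 h). All BDNF libraries were below every control, the 1 h KCl libraries were above every control, and those of 6 h lay on either side of them. The log2 fold change was -0.83 ± 0.07 at 1 h of BDNF (adjusted p = 4.80e-09), -1.30 ± 0.07 at 6 h (adjusted p = 6.10e-12) and -0.84 ± 0.07 at 10 h (adjusted p = 8.96e-09). At 6 h of BDNF the level was 40.7% of the controls, and its fold change ranked 80 from the lowest of the 16209 genes. KCl raised it by 0.31 ± 0.07 at 1 h (adjusted p = 8.85e-04), gave -0.06 at 6 h (adjusted p = 0.441) and lowered it at 10 h (-0.20, adjusted p = 0.0231). The 6 h value became a called -0.22 without KCl 6 h library A, and the 10 h call was lost without either of its libraries (-0.20 and -0.19). Tested directly, BDNF was below KCl by -1.14 ± 0.09 at 1 h (adjusted p = 8.78e-10), -1.23 at 6 h (adjusted p = 2.20e-10) and -0.64 at 10 h (adjusted p = 4.13e-06).

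Mef2d rose to a like level under both stimuli at 1 h and stayed up only with KCl at the later times tested. Its controls ran from 1161 through a median of 1254 to 1334 normalised counts. BDNF gave 2036 and 2251 (1 h), 1350 and 1242 (6 h), then 1442 and 1210 (10 h). KCl gave 2423 and 1994, then 2229 and 1981, and at 10 h 1818 and 1723. The later BDNF libraries overlapped the controls and all KCl libraries were above them. After 1 h Mef2d had changed by 0.77 ± 0.08 with BDNF (adjusted p = 1.42e-07) and 0.80 ± 0.08 with KCl (adjusted p = 3.52e-08), with a difference of -0.04 and a 95% interval from -0.24 to 0.17. At 6 h BDNF was below KCl by -0.70 ± 0.10 (adjusted p = 4.88e-06) and at 10 h by -0.42 (adjusted p = 0.00188). Exons of Mef2d share 531 bp with the antisense gene 1700113A16Rik, which had a mean of 8.31 normalised counts.

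By the size of the log2 fold change, Mef2a moved least of the 3 MEF2 genes at each BDNF time and at 1 h of KCl. At 6 and 10 h of KCl Mef2c moved less (-0.06 and -0.20). The Mef2a controls ran from 1627 through a median of 1809 to 1960 normalised counts. With BDNF it was at 2006 and 2058 (1 h), 1889 and 1680 (6 h), then 1829 and 1754 (10 h). With KCl it was at 1898 and 1888, then at 1482 and 1324, and at 10 h at 1484 and 1557. Only the KCl libraries of 6 and 10 h were below every control and only those of 1 h of BDNF above. Against the controls, the change was -0.35 ± 0.07 at 6 h of KCl (adjusted p = 1.31e-04) and -0.24 ± 0.07 at 10 h (adjusted p = 0.00675), against -0.01 and 0.00 with BDNF, where it was not called. The direct difference was 0.35 at 6 h (adjusted p = 0.00165) and 0.24 at 10 h (adjusted p = 0.0312); the latter call was lost without BDNF 10 h library A (0.21) or KCl 10 h library A (0.20). The rise at 1 h of BDNF (0.18, adjusted p = 0.0468) was lost without either library of that group and against the controls of the same time (0.17, adjusted p = 0.219). Mef2a shares 302 bp of exon with Lysmd4 on the opposite strand, with a mean of 355 normalised counts, whose reads in that stretch cannot be told apart from its own. Lysmd4 fell at 6 and 10 h of KCl (-0.83 and -0.34), where Mef2a fell, and also at 1 h of BDNF (-0.86), where Mef2a rose, at 6 h of BDNF (-0.25) and at 1 h of KCl (-0.88), where Mef2a was not called.

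**Figure D2:**
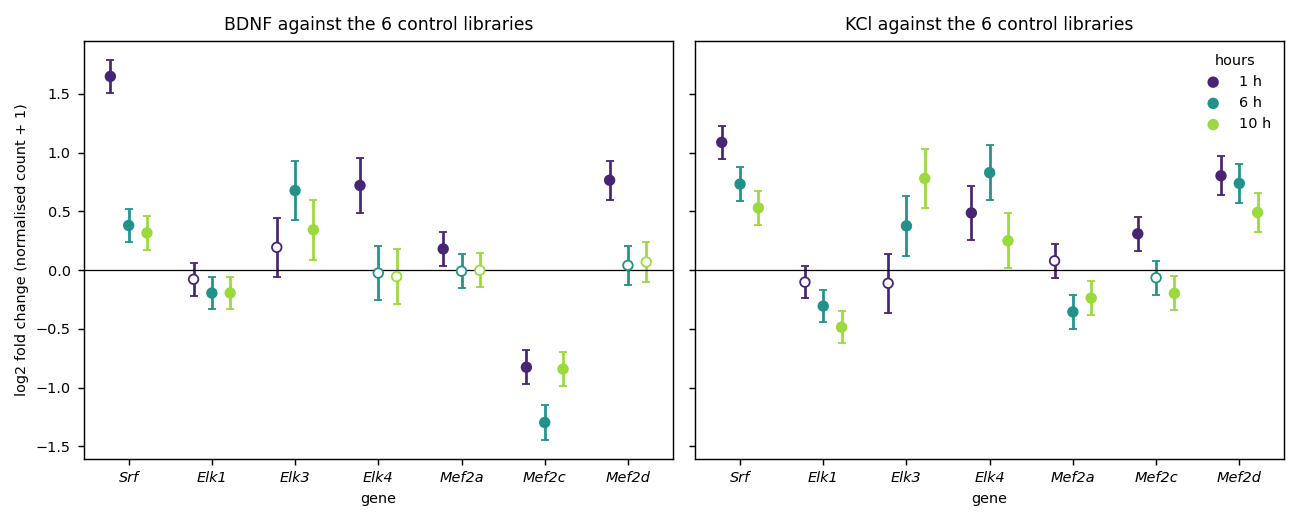
Log2 fold changes against the 6 controls (vertical axis) of the 7 genes (horizontal axis) for BDNF (left) and KCl (right), with colours for 1, 6 and 10 h, bars for the 95% interval and filled points for called changes. Mef2c lies below 0 at each BDNF time (-0.83, -1.30 and -0.84), and the Mef2d points of 1 h stand at 0.77 (BDNF) and 0.80 (KCl).

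Counted together, 5 of the 7 genes were called 1 h after BDNF (4 higher, 1 lower), where 40.4% of all genes were called. At 6 h of BDNF 4 were called against 43.3% of all genes, and at 10 h 4 against 40.6%, in each case 2 higher and 2 lower. KCl called 4 of 7 at 1 h, all higher, against 54.7% of genes. It called 6 at 6 h (4 higher, 2 lower) against 66.5%, and all 7 at 10 h (4 higher, 3 lower) against 57.2%. Between the stimuli 2 were called at 1 h (background 42.8%), 6 at 6 h (57.3%) and 7 at 10 h (45.0%). Without either BDNF 10 h library 2 in place of 4 were called at 10 h of BDNF, and between the stimuli at 10 h the 7 became 3 without KCl 10 h library A and at most 5 without any other of the 4 libraries. With 7 genes these counts are a description only.

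Between 1 and 6 h of BDNF 5 members changed (33.6% of all genes did). Srf fell back by -1.27, Elk4 by -0.75, Mef2d by -0.72 and Mef2c by -0.47, while Elk3 rose by 0.48. From 6 to 10 h of BDNF only Mef2c changed, by 0.45 (adjusted p = 0.0392), where 0.216% of genes were called; the call was lost without any of the 4 libraries, with values of 0.39 to 0.52. The Elk3 rise was lost without library A of BDNF 1 h (0.31) or 6 h (0.42). Between 1 and 6 h of KCl 6 members changed, against 59.6% of genes: Elk3 (0.49) and Elk4 (0.34) rose, and Mef2a (-0.43), Mef2c (-0.37), Srf (-0.36) and Elk1 (-0.20) fell. From 6 to 10 h of KCl Elk3 rose by 0.40 while Elk4 (-0.58) and Mef2d (-0.25) fell, against 22.5% of genes. The Elk1 fall from 1 to 6 h was lost without KCl 1 h library A (-0.15) or KCl 6 h library B (-0.11). The last Elk3 and Mef2d calls were lost without KCl 6 h library A (0.40 and -0.16) or KCl 10 h library A (0.28 and -0.29), that of Elk3 also without KCl 6 h library B (0.40) and that of Mef2d without KCl 10 h library B (-0.21), so that 1 call was left without library A of KCl 6 h or 10 h.

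The genes around these factors were read from lists that were chosen with earlier results of these data known. Each list is given by how many of its tested members were called and by its median log2 fold change. The median over all genes lay within 0.01 of 0 in every comparison with controls. The counts stand beside the shares of all genes called in either direction, which were 40.4%, 43.3% and 40.6% at 1, 6 and 10 h of BDNF and 54.7%, 66.5% and 57.2% with KCl. Of 15 immediate early genes with SRF sites, all 15 rose at 1 h of BDNF (median 4.66) and 14 at 1 h of KCl (median 3.03). Such genes are defined by a rapid rise after stimulation, so these counts follow from the choice of list and do not measure SRF activity. At 10 h 10 of the list were higher with BDNF (median 0.99) and 12 with KCl (median 1.15), with 3 lower. Fosb, a FOS family gene, changed by 6.72 at 1 h of BDNF and 9.52 at 1 h of KCl. Egr2, a zinc finger factor, changed by 8.27 and 4.20, Egr4, of the same family, by 8.04 and 5.37, and Arc, which acts in synaptic AMPA receptor traffic, by 7.56 and 2.26. Controls of Fosb, Egr2 and Egr4 were near 10 normalised counts or lower, so that these fold changes depend on the added 1.

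Of 15 tested cytoskeletal SRF and MRTF targets, 8 rose and none fell at 1 h of BDNF (median 0.31; 40.4% of all genes called), while 3 rose and 3 fell at 1 h of KCl (median 0.18; 54.7%). Vcl, the focal adhesion protein vinculin, rose by 2.02 at 1 h of BDNF. Zyx, the adhesion protein zyxin, rose by 1.15 with BDNF and fell at 1 h of KCl (-0.32). Ccn1, a matrix protein gene, was at 1.36 ± 0.46 at 1 h of KCl, and its relative Ccn2 at 1.59 ± 0.34 at 6 h of KCl. The controls of these 2 genes varied widely, at 428 ± 201 and 122 ± 46.7 normalised counts (SD). The direct difference between the stimuli at 1 h was not called for Ccn1 (-0.94 ± 0.56). Of 13 tested SRF cofactors and parts of the actin switch, 9 rose and 2 fell at 1 h of BDNF (median 0.34; 40.4%), against 3 and 3 at 1 h of KCl (median 0.03; 54.7%). Fhl2, a LIM protein that binds SRF, rose by 1.54 at 1 h of BDNF. Mrtfa rose by 1.02 at 6 h of KCl, and Limk1, whose kinase inactivates cofilin, fell (-0.85).

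Among 11 targets of MEF2, 6 rose and 2 fell at 1 h of BDNF (median 0.20; 40.4% of all genes called), and 8 rose and 2 fell at 1 h of KCl (median 0.52; 54.7%). At 6 h of KCl 9 rose and 1 fell (median 0.87; 66.5%) against 6 and 1 with BDNF (median 0.22; 43.3%). Nr4a1, an orphan nuclear receptor gene, was at 3.57 at 1 h of BDNF and 6.94 at 1 h of KCl. Bdnf rose by 1.49 at 1 h of BDNF and by 4.86 at 6 h of KCl, and Homer1, a synaptic scaffold gene, by 3.62 and 2.41 at 1 h of BDNF and KCl. Arc and Nr4a1 of this list are also in that of the immediate early genes, and Hdac9 is also in that of the regulators of MEF2. Of 17 regulators of MEF2, 6 rose and 5 fell at 1 h of BDNF (median 0.03; 40.4%), and 9 rose and 5 fell at 6 h of KCl (median 0.21; 66.5%). Hdac9, a class IIa deacetylase gene, fell at 1 h of BDNF (-0.40) and of KCl (-0.41), and rose by 2.56 at 6 h of KCl and 2.76 at 10 h. Hdac5, of the same class, rose by 1.50 at 1 h of BDNF, where at 6 h it was at -0.01, and by 1.32 and 1.38 at 1 and 6 h of KCl. Of the calcium and calmodulin kinases, Camkk1 rose by 0.92 at 1 h of BDNF and Camk1 by 0.74 at 10 h of KCl.

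The 20 kinases that phosphorylate ELK or MEF2 proteins had medians within 0.09 of 0 in all 6 comparisons with controls; 5 rose and 1 fell at 1 h of BDNF, where 40.4% of all genes were called, and 8 rose and 7 fell at 6 h of KCl, where 66.5% were. Rps6ka5, the gene of the nuclear kinase MSK1, fell at 6 h of BDNF (-1.32) and of KCl (-0.71), and Rps6ka4, its relative, at 1 h of KCl (-0.97). Rps6ka1 rose by 0.78 at 1 h of BDNF and Mapk10, a JNK gene, fell at 6 h of BDNF (-0.75). Of 12 other ETS genes tested, 6 rose and 1 fell at 1 h of BDNF (median 0.29; 40.4%), 6 rose and 3 fell at 1 h of KCl (median 0.28; 54.7%), and 2 rose and 6 fell at 6 h of BDNF (median -0.15; 43.3%). Etv5 rose by 1.77, 1.66 and 1.52 at 1, 6 and 10 h of BDNF, Erf, an ETS repressor gene, by 2.03 and 2.12 at 1 h of BDNF and KCl, and Elf4 by 2.71 at 1 h of KCl. Ets2 rose by 1.09 at 1 h of BDNF and fell at 1 h of KCl (-0.78).

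Over the 9 group means, the genes whose pattern was most like that of a member were found among 13449 protein-coding genes by Pearson correlation of log2 values. The points share their control and stimulated libraries and no p is given. For Srf they were Map7d1 (0.987), Csrnp1 (0.985) and Atf3 (0.981). For Elk1 they were Cdca8 (0.983), Zbtb7c and Nek2 (0.976), of which Cdca8 and Nek2 act in mitosis. Elk3 was followed by Zfp804b (0.973), Slc27a4 (0.951) and Srpr (0.940), and Elk4 by Sf1 (0.982), Ivns1abp (0.979) and Sgpl1 (0.974). Mef2a was followed by Epb41l1 (0.980), Dynll2 (0.980) and Anp32e (0.978). For Mef2c they were Rnf5 (0.987), Nyap1 (0.975) and Shank2 (0.969), and for Mef2d the circadian gene Per1 (0.988), Fbxo42 and Chrm4 (0.978).

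Cell type markers were summed in each library as a check of the label. All 8 neuronal markers passed the filter, with sums of 48280 to 53580 normalised counts in controls, 48240 to 52950 with BDNF and 44010 to 54530 with KCl. All 8 markers of astrocytes and radial glia were present too, at 14330 to 18440, 14090 to 17150 and 13270 to 19890, so the cultures were not of neurons alone. Inhibitory neuron markers (3 of 3) went from 4593 to 5971 in controls to 6913 to 8756 with BDNF and 6093 to 9808 with KCl. The pair of dividing-cell markers ran from 3352 to 5730, 2908 to 4705 and 2287 to 5309, and the oligodendrocyte lineage from 5713 to 6194, 5457 to 6495 and 4199 to 7242. Microglial markers (5 of 5) summed to 120 to 166, 104 to 154 and 109 to 187. Those of endothelium and pericytes, of which 3 of 5 passed, summed to 191 to 267, 170 to 254 and 249 to 285, with Cldn5 at a mean of 1.13 and Flt1 at 4.93; no marker was at 0 in all libraries. The part of these shifts in the results for the 7 genes was not tested. The RNA libraries held 8.51 to 36.7 M reads (M, mega; median 11.6 M), and the ATAC libraries 1.24 to 6.24 M in peaks (median 3.55 M).

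Accessibility at the 7 genes was read from the ATAC peaks, and the counts called stand beside the shares of all peaks. Of 58177 peaks, 56383 were tested, and 30 of them belonged to the 7 genes because they lay in the gene (mm10, GENCODE M21) or had its start as the nearest within 50 kb. Mef2c held 12 of these, Elk3 7, Mef2d 5, Srf and Mef2a 2 each, and Elk1 and Elk4 1 each; each gene had 1 promoter peak. At 1 h of BDNF 3 of the 30 were called, all gained, where 16.4% of all peaks were called and 11.2% gained. At 6 h of BDNF it was 1 gained (9.40% called, 7.33% gained) and at 10 h 1 gained (8.27% called, 6.23% gained). At 1 h of KCl 4 were gained (7.97% called, 4.88% gained), at 6 h 2 were gained and 1 closed (6.74% called, 4.65% gained), and at 10 h 1 was gained (7.08% called, 4.98% gained). Between the stimuli 3 were called at 1 h, all lower with BDNF (14.1% of peaks), 1 at 6 h (3.38%) and 0 at 10 h by edgeR and by limma (1.88%; 3 had an unadjusted p under 0.05). These counts rest on few libraries: without KCl 1 h library A no peak was called at 1 h of KCl, without KCl 6 h library B 0 were called at 6 h, and without BDNF 1 h library B 1 was called at 1 h of BDNF.

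The Srf promoter peak, chr17:46555698-46556662, which holds both CArG boxes, was not called at any time. At 10 h of BDNF its log2 fold change was -0.19, and -0.49 and called without BDNF 10 h library B (adjusted p = 0.0849). Its scaled counts were 246 to 337 in the controls and 322 and 285 at 1 h of BDNF, when the RNA was 3.13-fold higher. Nor were the promoter peaks of Elk4 (chr1:132007263-132008389), Mef2a (chr7:67372355-67373539), Mef2c (chr13:83523668-83525077) and Mef2d (chr3:88141892-88142826) called. For Mef2c the controls ran from 95.5 to 156 and the 6 h BDNF libraries were at 114 and 133, inside that range. At 1 h of KCl the Mef2c promoter peak was at 0.37 (adjusted p = 0.14), and it became a called gain without control 1 h library B (0.45) or control 10 h library A or B (0.42 and 0.43). The Elk1 promoter peak, chrX:20950327-20951052, was at 188 to 252 in the controls and at 166 and 115 at 6 h of KCl, with a log2 fold change of -0.57 (adjusted p = 0.00753) and a difference of 0.68 between BDNF and KCl (adjusted p = 0.0113). The fold change was no longer called without KCl 6 h library B (-0.41) or against the controls of 6 h alone (-0.36, adjusted p = 0.294), which were at 188 and 193. The difference between the stimuli was lost without BDNF 6 h library A (0.56) or KCl 6 h library B (0.52). At Elk3 the promoter peak, chr10:93310974-93311241, was at 9.62 to 17.2 in the controls, 24.0 and 31.0 at 10 h of BDNF (1.09, adjusted p = 0.0954) and 32.3 and 25.0 at 6 h of KCl (1.18, adjusted p = 0.066). Each of these calls was lost without either library of its group (1.25 and 0.88 for BDNF, 0.93 and 1.30 for KCl), and the BDNF one without any of 4 of the control libraries (1.02 to 1.12).

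**Figure D3:**
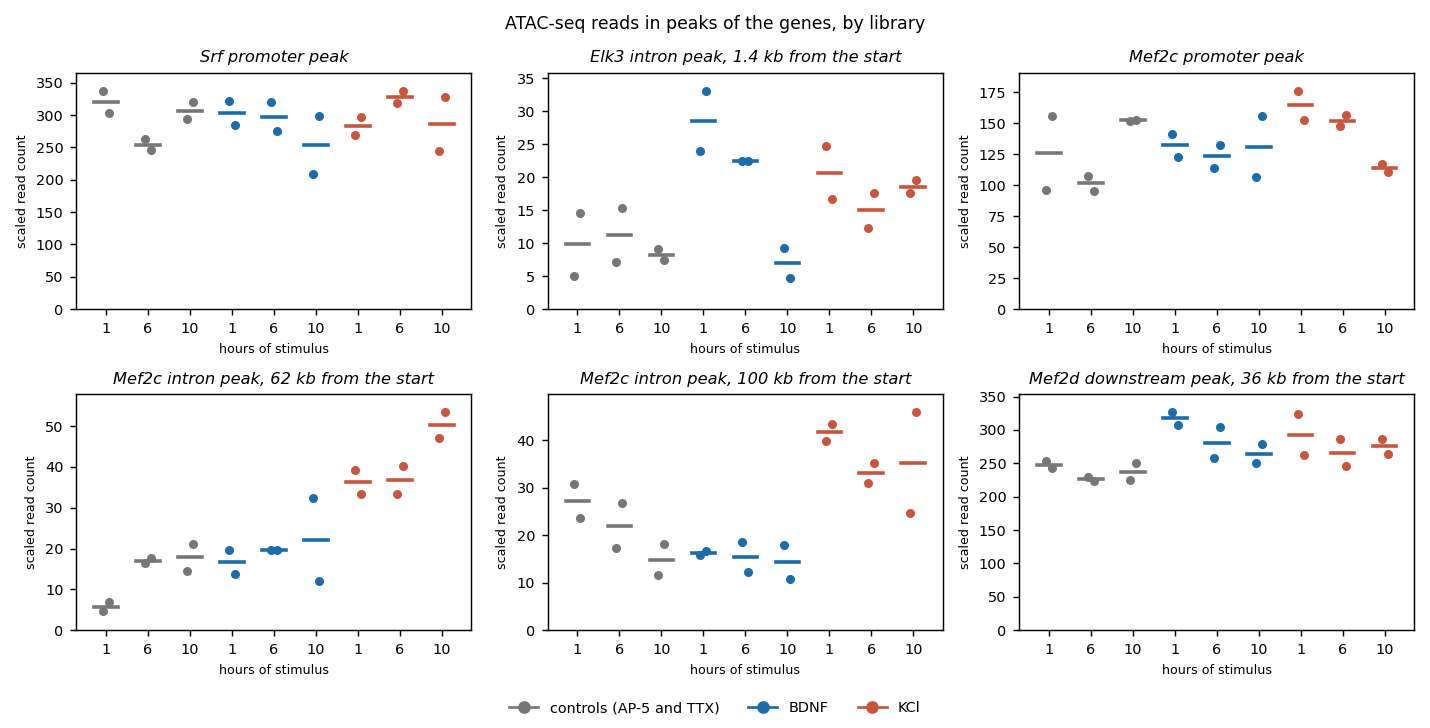
Scaled ATAC counts (vertical axis, each panel from 0) of 6 peaks of Srf, Elk3, Mef2c and Mef2d in each of the 18 libraries, grouped by stimulus and hours (horizontal axis); points are libraries and lines group means. The Mef2c intron peak with 1 MEF2 site is at 4.78 to 21.2 in the controls and at 47.0 and 53.5 after 10 h of KCl, while the Srf promoter peak stays between 209 and 338 in all libraries.

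The called intron peaks of Elk3 lay at chr10:93309615-93309817, printed above, and at chr10:93275252-93276791, and both held an AP-1 site. The first was at 5.07 to 15.4 scaled counts in the controls and at 24.0 and 33.1 at 1 h of BDNF, a log2 fold change of 1.52 (adjusted p = 0.00326); at 6 h of BDNF it was at 22.4 in each library (1.17, adjusted p = 0.0677). At 10 h of BDNF it was back at 9.19 and 4.64. The control mean of this first peak was 9.78 scaled counts, under the mean of 10 that the filter asked for over all libraries before scaling. Its passing the filter may thus rest on the groups where it was high. The second was called at 1 h of BDNF (0.49, adjusted p = 8.29e-04). Without BDNF 1 h library B neither gain at 1 h was called (1.19 and 0.39), and the gain at 6 h was lost without either BDNF 6 h library (1.13 and 1.14) or without library A of the 1 h or 6 h controls (1.09 and 1.12). AP-1 sites also lay in peaks that were not called: the promoter peaks of Mef2c and Mef2d and a peak upstream of Mef2d.

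At Mef2c the gains were under KCl. The intron peak chr13:83566125-83566604, with 1 MEF2 site, was at 39.2 and 33.3 scaled counts at 1 h of KCl, 33.2 and 40.2 at 6 h, and 47.0 and 53.5 at 10 h. Its controls were uneven, at 4.78 and 6.78 at 1 h against 14.5 to 21.2 at 6 and 10 h. The log2 fold change against all controls was 1.41 at 1 h (adjusted p = 0.00621), 1.40 at 6 h (adjusted p = 0.0161) and 1.88 at 10 h (adjusted p = 4.43e-05). With BDNF the libraries were at 19.5 and 13.7 at 1 h, and against the controls of that time alone this was a called gain of 1.46. The KCl calls at 1 and 6 h were lost without KCl 1 h library A (1.30) and without either KCl 6 h library (1.56 and 1.28), while that at 10 h was kept whichever library was left out. The intron peak chr13:83603948-83604148, with 2 MEF2 sites, was at 11.6 to 30.9 in the controls and at 39.9 and 43.5 at 1 h of KCl (0.95, adjusted p = 0.0623), and BDNF was below KCl at 1 h (-1.36, adjusted p = 0.024; lost without either BDNF 1 h library, at -1.31 and -1.38, or KCl 1 h library B, at -1.30). That KCl call was lost without either KCl 1 h library (1.02 and 0.89) and without control 6 h or 10 h library A. A further peak over an exon, chr13:83654990-83655739, named after its values were seen, was gained at 1 h of KCl (0.63, adjusted p = 0.011) and was lower with BDNF than with KCl (-0.96, adjusted p = 6.78e-04). The gain was lost without either KCl 1 h library (0.58 and 0.68). This exon peak held an AP-1 site. The Mef2c promoter peak, which was not called, also held a MEF2 site.

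Downstream of Mef2d, the peak chr3:88177598-88178415, which holds a CArG box, was at 223 to 253 scaled counts in the controls and at 327 and 308 at 1 h of BDNF (0.42, adjusted p = 0.00187). At 1 h of KCl it was at 323 and 262 (0.29, adjusted p = 0.0869), a call lost without KCl 1 h library A (0.14), without any of 3 control libraries (0.28 in each) and with TMM scaling (0.14).

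Over all tested peaks, the share gained among peaks with a site for these factors in their central 200 bp is given as a description. The MEF2 site was in 1759 peaks, of which 15.4% were gained at 1 h of BDNF and 12.4% at 10 h of KCl, beside 11.2% and 4.98% of all peaks. At 1 h of BDNF 9.10% of them were also closed, beside 5.20% of all peaks, and their median log2 fold change was -0.11 beside -0.04. At 10 h of KCl 1.19% were closed, beside 2.09%, with a median of 0.20 beside -0.02. Since 17.1% of the MEF2 peaks also held the AP-1 site (13.0% of all peaks did), and 50.0% of AP-1 peaks were gained at 1 h of BDNF, the shares were taken again over peaks without it. Then 8.43% of 1459 MEF2 peaks were gained at 10 h of KCl beside 2.55% of 49072, and 6.99% beside 5.43% at 1 h of BDNF. The CArG box was in 531 peaks, of which 11.7% were gained and 7.34% closed at 1 h of BDNF (median -0.12), beside 11.2% and 5.20% of all peaks. At 1 h of KCl 6.59% were gained and 3.01% closed (median 0.04), beside 4.88% and 3.08% of all peaks. Without AP-1 the gained shares were 5.26% and 5.48% of 456, beside 5.43% and 3.69%. The ETS site was in 719 peaks. Of these, 2.50%, 0.556% and 1.39% were gained at 1, 6 and 10 h of BDNF, beside 11.2%, 7.33% and 6.23% of all. With KCl 1.25%, 0.556% and 0.974% were gained, beside 4.88%, 4.65% and 4.98%. Closed with BDNF were 0.834%, 0.139% and 0.834%, beside 5.20%, 2.07% and 2.04%. With KCl 4.59%, 5.29% and 4.73% were closed, beside 3.08%, 2.09% and 2.09%. The AP-1 site was in 2.09% of the ETS peaks, and their shares without it were not taken.

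**Figure D4:**
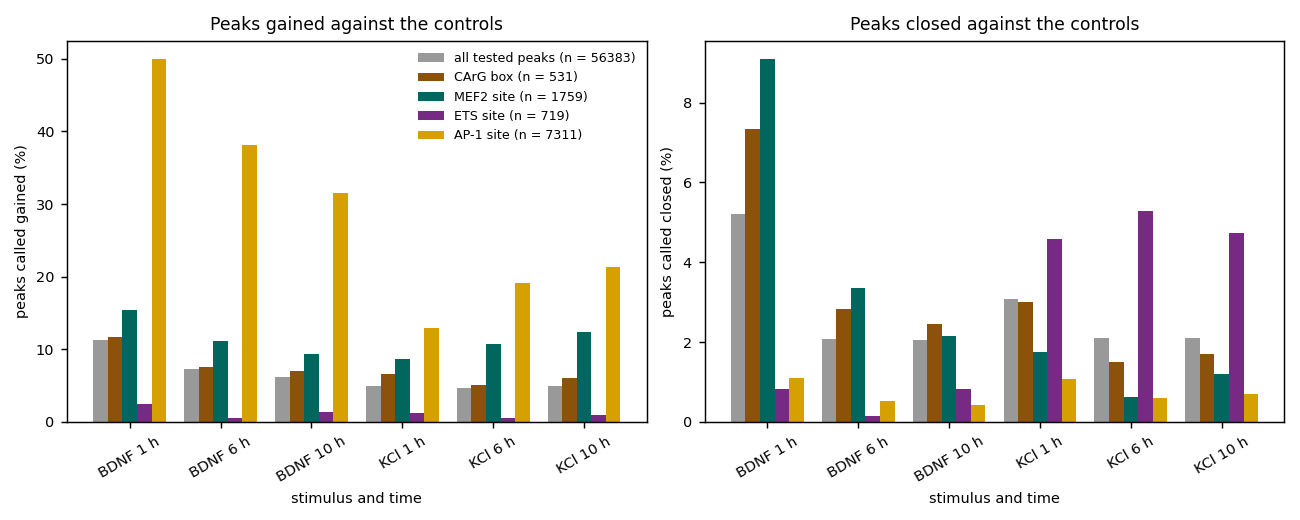
Percent of tested peaks called gained (left) and closed (right) against the controls (vertical axes, from 0) in the 6 comparisons (horizontal axis), for all peaks and for those with a CArG box, MEF2 site, ETS site or AP-1 site in the central 200 bp. At 10 h of KCl 12.4% of MEF2 peaks were gained beside 4.98% of all peaks.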

How the data were processed

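RNA-seq and ATAC-seq of 18 libraries each were used. The authors aligned reads to mm10 (TopHat2, GENCODE M16; Bowtie2 for ATAC-seq) and deposited RNA counts divided by DESeq2 size factors (a signal; 100% of values gave whole reads within 0.01). They called peaks per sample with MACS2, kept those found in 2 or more samples and deposited ATAC counts per peak, which proved whole and unscaled. Their columns of fold changes and p-values were not used. Strand in counting is not stated.

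RNA was tested with limma 3.58.1 on log2(value + 1) over genes with a mean of 10 or more, in 7 levels with the 6 controls as 1 (9 levels for control times), and ATAC counts with edgeR 4.0.16 (quasi-likelihood, LOESS offsets, the same filter). Tests were two-sided, with Benjamini-Hochberg adjustment over all features, called under 0.1. Intervals are 95%. Both fits were tested on simulated data. Promoter peaks reach 1000 bp before to 100 bp after a start. The named genes were all members, up to 4 of each list with the largest called change, the 3 most like each member, every promoter peak and up to 2 other called peaks per member. The result for 1 named list gene is not reported here. Members and lists were chosen with earlier results of these data known. Alternatives were edgeR, DESeq2 1.42.0, other scalings and filters, controls of the same time, a threshold of 0.01, a replicate block and leaving out each library.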

Additional observations from a re-analysis of the deposited data

Results flagged for a closer look

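The changes with time within a stimulus that passed the direct test are given here as log2 differences (limma, two-sided, adjusted over all genes). From 1 to 6 h of BDNF they were -1.27 for Srf, -0.75 for Elk4, -0.72 for Mef2d, -0.47 for Mef2c and 0.48 for Elk3, and from 6 to 10 h 0.45 for Mef2c. From 1 to 6 h of KCl they were 0.49 for Elk3, 0.34 for Elk4, -0.43 for Mef2a, -0.37 for Mef2c, -0.36 for Srf and -0.2 for Elk1, and from 6 to 10 h 0.4 for Elk3, -0.58 for Elk4 and -0.25 for Mef2d. No single control library of the 7 genes stood outside the others by Dixon's test.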

How the results depend on the processing

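No value of a member reversed under any alternative. Of 882 RNA values of the members under other settings 848 stayed on the same side of the threshold, and of 588 with a library left out 537 did. The cause of the changes was not tested. With a threshold of 0.01, the members called fell from 4 to 2 at 10 h of BDNF, from 7 to 3 between the stimuli at 10 h, from 1 to 0 for 6 to 10 h of BDNF and from 3 to 1 for 6 to 10 h of KCl, where no filter also gave 1. Calls were also lost for Mef2a at 1 h and Elk1 at 6 h of BDNF, and for Elk3 at 6 h and Elk4 and Mef2c at 10 h of KCl. So were those of Elk3 between the stimuli at 6 h, and from 1 to 6 h of Elk3 with BDNF and of Elk1 and Elk4 with KCl. For ATAC that threshold gave 0 peaks at 6 h and 0 at 10 h of BDNF, 1 at 1 h and 1 at 6 h of KCl, and 1 at 1 h and 0 at 6 h between the stimuli. At 10 h of KCl, TMM gave 5 peaks and DESeq2 size factors 5, and at 10 h of BDNF the latter gave 2; over all peaks the KCl 10 h calls were 3990, 7995 with TMM and 8605 with size factors. With limma 0 peaks were called at 6 h of BDNF and 2 at 1 h of KCl. Controls of the same time gave 0 at 10 h of BDNF, and 2, 0 and 2 at 1, 6 and 10 h of KCl. Promoter peaks alone gave 0 at 1 h and 0 at 6 h of BDNF, and 0 at 1 h and 0 at 10 h of KCl.

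Leaving out 1 library at a time, the members called ranged from 4 to 5, 3 to 4 and 2 to 4 at 1, 6 and 10 h of BDNF, and from 4 to 4, 6 to 7 and 5 to 7 with KCl. Between the stimuli the range was 2 to 3, 5 to 6 and 3 to 5. Between times it was 4 to 5 and 0 to 0 for BDNF, and 4 to 6 and 1 to 4 for KCl; for control times it was 0 to 0. The member peaks called ranged from 1 to 3, 0 to 2 and 0 to 1 with BDNF, from 0 to 6, 0 to 3 and 1 to 1 with KCl, and from 1 to 2, 0 to 2 and 0 to 0 between the stimuli. With 2 libraries per group, the lone library left is assumed to vary like the other groups.

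The labels do not say whether RNA libraries with the same letter, A or B, share a culture. Correlations of deviations over 36 pairs ran from -0.31 to 0.42 (median 0.06, 13 over 0.1), and their mixed signs cannot settle this. With the letter as a replicate block, 5 members in place of 6 were called between the stimuli at 6 h, Elk3 being lost (adjusted p = 0.101), and the other counts stayed the same. For the ATAC peaks no block could be fitted, since their columns do not carry the replicate numbers of the labels.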
